A study of Homo sapiens with 34 samples.

Results

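Human cells copy their genome through a fixed series of protein assemblies, and the 50 genes described here encode most of them: the origin recognition complex, the factors that load and start the MCM helicase, the replicative DNA polymerases, the sliding clamp and its loader, the single-strand binding protein RPA, and proteins that join fragments, steady the fork and reassemble chromatin. The genes were chosen by symbol for these roles, with earlier results of these data known. All 50 are among the 17587 genes listed in any of the 6 deposited tables and the 13307 listed in all of them. RNA was sequenced from 3 established lines of human B-cell acute lymphoblastic leukaemia (B-ALL), in which CCND3, the gene for cyclin D3, was depleted by RNA interference or the cyclin-dependent kinases CDK4 and CDK6 were inhibited with palbociclib. The lines carry different driver fusions: ETV6-PDGFRB in NALM-6, MLL-AF4 in RS4;11 and BCR-ABL in BV-173. Together 34 samples make up 12 groups, which were compared in pairs within a line to ask what each treatment does to the transcriptome.

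In the knockdown arm, cells of each line carried a lentiviral vector that expresses a short hairpin RNA (shRNA) against CCND3, or a scrambled shRNA in the control group, together with the red fluorescent protein TagRFP. Red cells were sorted at day 4 after transduction, so both groups had been transduced and sorted, and a single hairpin sequence stands for the knockdown. In the drug arm, cells of each line received 1 µM palbociclib or the solvent DMSO for 3 days. Each group held 3 samples, except for 2 in the shCCND3 group of NALM-6 and 2 in the DMSO group of BV-173. The 2 arms have separate controls and end on different days.

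Replication is prepared in G1 phase. The origin recognition complex binds DNA and, with CDC6 and CDT1, places MCM2 to MCM7 as an inactive ring helicase around it, a step known as licensing that geminin blocks by holding CDT1. In S phase the kinase CDC7 with DBF4, together with cyclin-dependent kinases, allows CDC45 and the GINS complex to join the ring, and forks then proceed with polymerases alpha, delta and epsilon, PCNA, RFC and RPA. Many of these genes are textbook targets of E2F transcription factors, which the retinoblastoma protein holds inactive until cyclin D with CDK4 or CDK6 phosphorylates it, and cyclin D3 is a D-type cyclin that B-cell precursors need.

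Each deposited table gives 1 level per gene for the control group and 1 for the treated group, as the authors' value for the group, scaled within that pair. There is therefore no spread between the samples of a group and the depth per sample is unknown. The authors' test columns were not used, so a difference within a single table comes without a replicate check here. The quantity used throughout is the log2 ratio of the treated level over the control level within a table, and a gene counts as lower or higher when it is past 1.5-fold, which is 0.58 on the log2 scale. This ratio takes the deposited level as linear. The sources used here do not state that scale or how low levels were made. Triplets of values are given in the order NALM-6, RS4;11, BV-173. No table holds a level of 0. Log2 ratios of the weakest genes were compressed: genes with a mean level below 1 had an interquartile range of 0.15, 0.21 and 0.12 in the knockdown tables, against 0.49, 0.55 and 0.45 for genes between 100 and 1000. Between 10 and 100 the range was wider, at 0.78, 0.78 and 0.58. With palbociclib it was 1.39, 1.15 and 1.05 there, against 0.83, 0.77 and 0.69 between 100 and 1000. The mean level of a pair was above 100 for all 50 members, the lowest being 193, for RPA3 in the knockdown table of the MLL-AF4 line. Single palbociclib levels lay lower, down to 21 for MCM10 in that line.

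The lineage of the cells was checked against marker genes. All 13 markers of B-cell precursors were listed in the 12 groups, and their levels summed to between 65880 and 143171. The highest among them was RAG1 in NALM-6 with palbociclib, at 30303. MME, which encodes CD10, was nearly absent from RS4;11, with levels from 2.53 to 6.70, while it was the leading marker of NALM-6 in the knockdown arm, at 21604 and 26810. DNTT was also low in RS4;11, at 75.2 to 215, against 5208 to 17640 in the other lines. T cell markers summed to at most 80.1, carried by CD4 in NALM-6, erythroid markers to at most 1.63, and stroma markers to at most 217, carried by COL1A1. Myeloid markers summed to between 88.8 and 561, led by CSF1R in the MLL-AF4 and BCR-ABL lines and by LYZ in NALM-6. With palbociclib, lower and higher precursor markers past 1.5-fold numbered 2 and 3 in NALM-6, 2 and 5 in the MLL-AF4 line and 7 and 2 in BV-173 (median log2 ratios 0.36, 0.48 and −0.59). The shares of all genes were 14.9% and 21.4%, 15% and 16.7%, and 11.9% and 13.6%. With the knockdown the lower and higher precursor markers numbered 0 and 2, 2 and 4, and 3 and 0 (medians 0.01, 0.26 and −0.02). There the shares of all genes were 8.47% and 7.82%, 9.72% and 9.73%, and 4.78% and 3.32%. The medians of the myeloid markers were 0.23, −0.28 and 0.07 with palbociclib and −0.14, −0.36 and −0.10 with the knockdown. Single myeloid markers moved further with palbociclib, in different directions. CSF1R stood at 0.64, 318 and 145 with DMSO and 2.22, 284 and 513 with palbociclib. MPO stood at 13.75, 13.5 and 28.8 with DMSO and 68.4, 1.05 and 14.4 with palbociclib. Whether these marker differences have a part in the results was not tested.

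CCND3 (NCBI gene 896), the target of the shRNA, stood at 19498, 16178 and 6619 in the scrambled groups and at 4727, 3353 and 2060 in the shCCND3 groups. These log2 ratios of −2.04, −2.27 and −1.68 ranked as number 5, 8 and 3 from the lowest in their tables, so the target was among the most reduced transcripts in each line. The mean over the lines was −2.00 ± 0.17 (SE, n = 3 lines), with an adjusted p of 0.00555 by limma. Each SE given with a mean is that of the 3 ratios, while the limma test draws the variance of a gene toward that of genes at a similar level, and its own SE was the smaller for 44 of 50 members with the knockdown and 43 with palbociclib. In the drug arm CCND3 was at 28149, 17431 and 7466 with DMSO and 21960, 14267 and 5674 with the drug. Its log2 ratios of −0.36, −0.29 and −0.40 were below 0 in 3 of 3 lines and did not pass the test (adjusted p = 0.126, unadjusted p = 0.0363).

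The number of members past 1.5-fold differed between the tables. With the knockdown, 42 of 50 members were lower by 1.5-fold in NALM-6 (background, 8.47% of all genes of the table), 44 in RS4;11 (9.72%) and 13 in BV-173 (4.78%). With palbociclib the counts were 46 (14.9%), 45 (15%) and 44 (11.9%). No member was higher by 1.5-fold in any table, where 7.82%, 9.73% and 3.32% of all genes were with the knockdown, and 21.4%, 16.7% and 13.6% with palbociclib. The member nearest to that threshold was ORC4 with palbociclib in NALM-6, at a log2 ratio of 0.55, which passes 1.5-fold when both groups are rescaled to the same sum, a step that shifts each log2 ratio of that table by 0.13. Genes at a mean level of at least 100, where all 50 members lie, gave a similar background: 9.88%, 11.0% and 4.50% were lower with the knockdown and 18.2%, 16.3% and 14.3% with palbociclib.

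The members' median log2 ratio was −1.07, −1.66 and −0.50 with the knockdown and −2.07, −2.73 and −1.32 with palbociclib, while the medians of all genes were 0.01, 0.007 and −0.007, and 0.06, 0.01 and 0.04. In bulk RNA of this kind, fewer cells in S phase and less of each transcript per cell cannot be told apart. With palbociclib, 43 of 50 members were lower by 1.5-fold in all 3 lines (6.16% of all genes). With the knockdown, 13 were (1.83%), a count set by BV-173, where the median lies just under the threshold: at the looser of the alternative fold thresholds, 41 members were lower in that table (15.4% of all genes) and 39 in all 3 lines (5.46%). Rescaling both groups of that table to the same sum shifted each log2 ratio by −0.10 and raised its count from 13 to 27, and that of all genes to 7.76%.

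**Figure D1:**
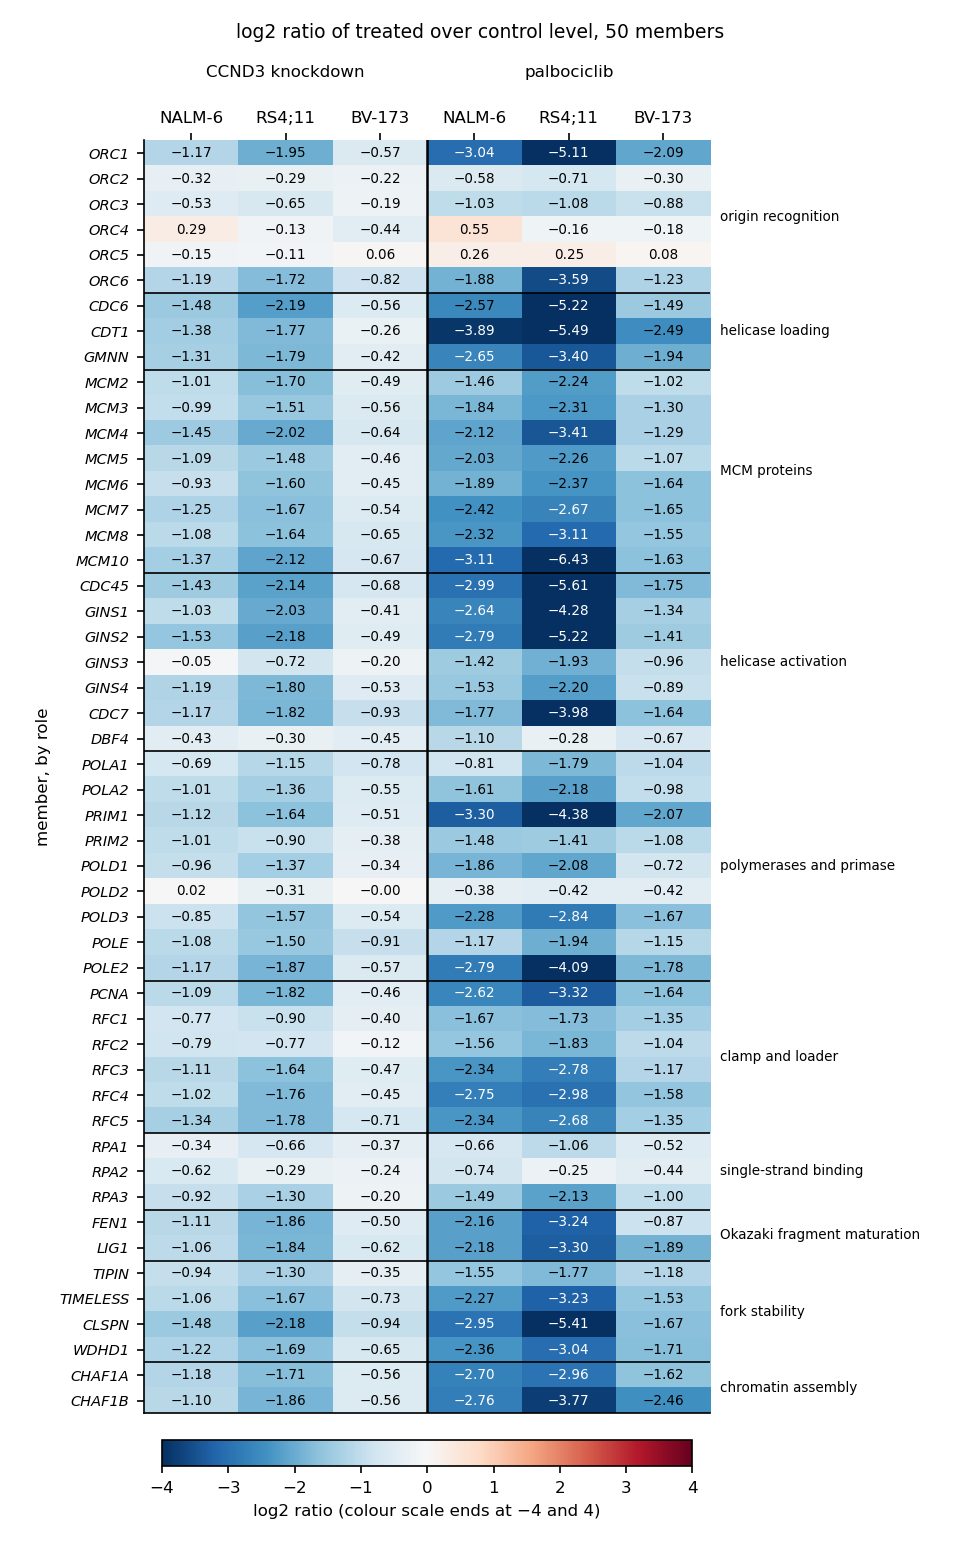
Log2 ratio of the treated over the control level for each of the 50 members (rows, by role) in the 6 tables (columns). Blue marks lower and red higher levels in the treated group, and the printed values run from −6.43 for MCM10 in RS4;11 with palbociclib to 0.55 for ORC4 in NALM-6 with palbociclib.

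Whether the mean of a member's 3 log2 ratios differed from 0 was tested with limma, over all 13307 genes. Such a test sets the mean against its spread between lines, not between the samples of a group. It does not ask whether the lines changed by the same amount. With the knockdown, 40 of 50 members fell at an adjusted p under 0.05 (background, 4.32%) and 0 rose (2%). With palbociclib, 45 fell (9.19%) and 0 rose (5.58%). At an unadjusted p under 0.05 limma also gave 0 members higher with the knockdown and with palbociclib (11.1% and 15.6% of all genes), and 46 and 48 lower (13.1% and 17.0%). The 10 members that did not pass with the knockdown were ORC2, ORC3, ORC4, ORC5, GINS3, DBF4, POLD2, RFC2, RPA2 and RPA3. With palbociclib they were ORC2, ORC4, ORC5, POLD2 and RPA2. The counts depend on the lines and on the variance model. Without RS4;11 cells, 23 members and 230 of all 13307 genes fell with the knockdown. Without NALM-6 cells, 12 members and 216 of all genes fell with palbociclib, where 47 members had an unadjusted p under 0.05 (14.0% of all genes). Without a trend of the variance with level, limma gave 0 of all 13307 genes lower with the knockdown, members included (45 members and 11.9% of all genes at an unadjusted p under 0.05), and 30 members and 518 of all genes lower with palbociclib.

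**Figure D2:**
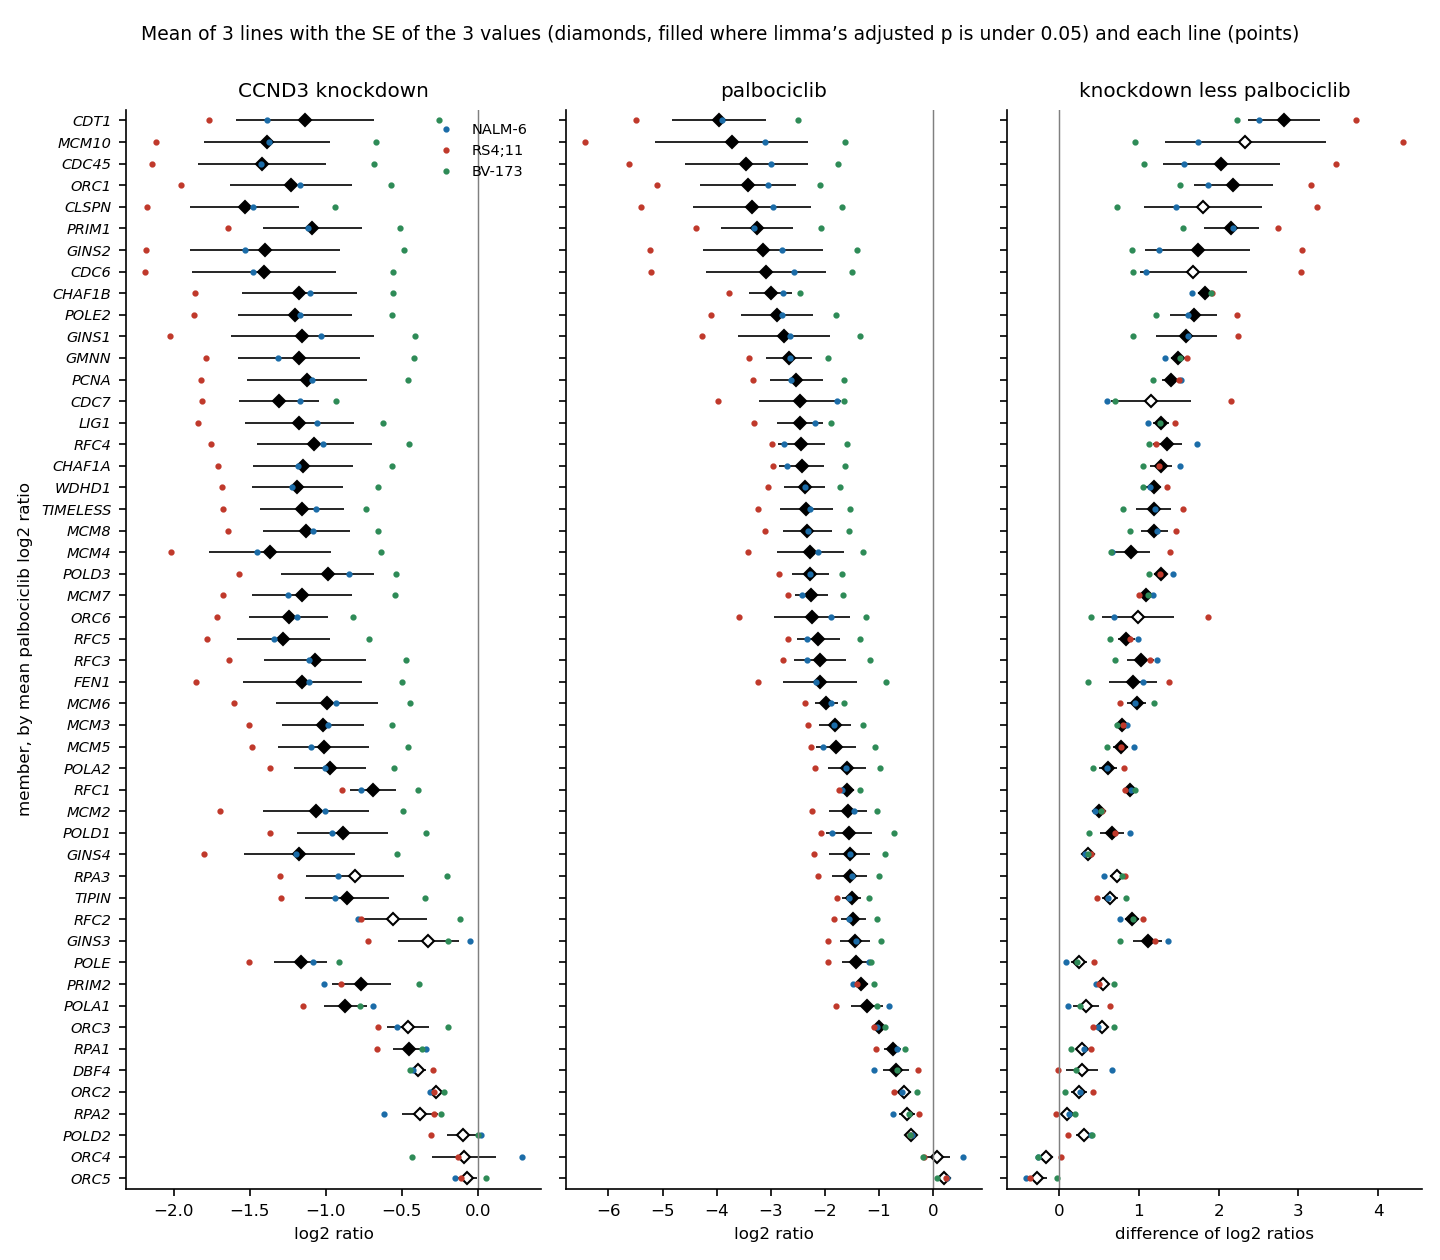
Each member's log2 ratio in the 3 lines (coloured points) with the mean over lines and the SE of the 3 values (diamonds), for the knockdown, for palbociclib and for their within-line difference. Filled diamonds mark an adjusted p under 0.05 by limma: 40 members with the knockdown, 45 with palbociclib and 31 for the difference.

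As E2F factors are textbook regulators of many of these genes, the promoters were searched for E2F-type letters. Promoters were taken from RefSeq sequences of GRCh38.p14, each running from 250 bases before to 50 bases after a start, and 44 of the 50 members had a promoter in that table, 55 in all. RPA2, RPA3, MCM4, MCM5, GINS4 and POLD3 had none there. The 7-letter motif TTGGCGC was searched on both strands together with its 3 forms that carry any other choice of G or C at letters 3 and 4, and matches were allowed to overlap. A match was found for 33 of the 44 members (75%), against 15.3% of all 27305 genes with a promoter, and in 35 of the 55 promoters (63.6%), against 13.0% of all 35116. With the stricter 8-letter forms, which carry another T in front, 50% of the members and 3.99% of all genes had a match. In 15 members a promoter held more than 1 match. The 11 members without a match were CDC45, DBF4, FEN1, MCM10, ORC2, ORC4, ORC5, ORC6, POLD1, POLD2 and PRIM2. Of that group, ORC2, ORC4, ORC5 and POLD2 did not pass the palbociclib test, while CDC45, DBF4, FEN1, MCM10, ORC6, POLD1 and PRIM2 did. MCM10 and CDC45 are among the 3 members with the lowest palbociclib mean. Whether a match goes with the size of the change was not tested. A match is a description of letters and does not show a bound site.

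The promoters of 6 members with a match and of 2 without are shown so that the letters can be read beside the values, 5′ to 3′ on the strand of the gene, with matches to the 7-letter motifs or their reverse complements in capitals. They lie at chr1:52404374-52404673, minus strand (ORC1), chr17:40287629-40287928, plus strand (CDC6), chr16:88803539-88803838, plus strand (CDT1), chr2:135876394-135876693, minus strand (MCM6), chr16:85688905-85689204, minus strand (GINS2), chr1:35769929-35770228, minus strand (CLSPN), chr10:13161308-13161607, plus strand (MCM10) and chr7:104207964-104208263, minus strand (ORC5), all in GRCh38.p14. The MCM6 promoter had the most matches of any member, 4, in 2 overlapping pairs, and ORC1 and CDT1 had 2 each.
ORC1: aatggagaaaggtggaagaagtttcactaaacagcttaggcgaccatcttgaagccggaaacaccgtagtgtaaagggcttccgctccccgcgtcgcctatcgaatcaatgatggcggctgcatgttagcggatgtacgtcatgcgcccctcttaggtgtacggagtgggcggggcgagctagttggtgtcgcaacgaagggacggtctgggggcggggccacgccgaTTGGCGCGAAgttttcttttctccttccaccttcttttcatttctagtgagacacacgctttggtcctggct
CDC6: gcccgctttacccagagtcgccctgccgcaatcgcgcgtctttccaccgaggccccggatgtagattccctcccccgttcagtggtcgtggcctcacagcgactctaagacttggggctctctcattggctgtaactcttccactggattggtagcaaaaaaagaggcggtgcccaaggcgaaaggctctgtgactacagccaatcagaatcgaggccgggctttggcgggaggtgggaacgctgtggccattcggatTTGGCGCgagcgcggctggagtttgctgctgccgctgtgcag
CDT1: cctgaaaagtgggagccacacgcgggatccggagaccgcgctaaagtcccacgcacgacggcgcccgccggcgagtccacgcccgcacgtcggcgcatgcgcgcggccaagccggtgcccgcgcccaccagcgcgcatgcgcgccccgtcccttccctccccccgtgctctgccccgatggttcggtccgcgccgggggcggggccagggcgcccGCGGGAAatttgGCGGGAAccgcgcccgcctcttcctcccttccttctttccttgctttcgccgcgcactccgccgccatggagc
MCM6: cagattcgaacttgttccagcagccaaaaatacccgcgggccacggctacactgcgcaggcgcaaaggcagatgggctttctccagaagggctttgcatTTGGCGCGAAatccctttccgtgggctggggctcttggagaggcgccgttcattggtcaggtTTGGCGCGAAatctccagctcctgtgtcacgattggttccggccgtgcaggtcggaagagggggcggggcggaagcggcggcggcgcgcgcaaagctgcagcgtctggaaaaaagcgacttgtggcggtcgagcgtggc
GINS2: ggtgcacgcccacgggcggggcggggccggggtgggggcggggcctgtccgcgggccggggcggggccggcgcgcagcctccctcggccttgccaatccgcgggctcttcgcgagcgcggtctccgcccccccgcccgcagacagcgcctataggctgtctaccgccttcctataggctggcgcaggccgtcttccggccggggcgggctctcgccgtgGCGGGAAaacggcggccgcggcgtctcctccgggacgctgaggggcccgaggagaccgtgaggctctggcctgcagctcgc
CLSPN: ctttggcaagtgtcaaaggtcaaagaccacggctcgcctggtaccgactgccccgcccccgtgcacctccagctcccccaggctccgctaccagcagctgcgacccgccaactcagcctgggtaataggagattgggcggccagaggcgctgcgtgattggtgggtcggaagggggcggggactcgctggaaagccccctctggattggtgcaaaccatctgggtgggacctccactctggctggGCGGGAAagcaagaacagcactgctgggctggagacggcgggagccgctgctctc
MCM10: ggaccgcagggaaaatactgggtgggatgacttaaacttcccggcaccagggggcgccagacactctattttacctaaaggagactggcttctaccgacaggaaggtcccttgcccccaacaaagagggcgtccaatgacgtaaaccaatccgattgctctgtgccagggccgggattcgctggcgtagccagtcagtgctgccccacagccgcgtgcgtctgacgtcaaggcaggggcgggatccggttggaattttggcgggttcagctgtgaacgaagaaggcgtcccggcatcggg
ORC5: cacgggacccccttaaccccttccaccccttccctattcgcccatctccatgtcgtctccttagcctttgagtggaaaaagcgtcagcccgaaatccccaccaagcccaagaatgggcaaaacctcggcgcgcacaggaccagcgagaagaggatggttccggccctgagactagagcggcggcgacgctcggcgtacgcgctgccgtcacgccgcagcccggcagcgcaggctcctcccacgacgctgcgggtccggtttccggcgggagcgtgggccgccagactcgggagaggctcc

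Origin recognition split between its subunits. ORC1 (NCBI gene 4998), the subunit that recruits CDC6 and is made anew in each cycle, stood at 1629, 1409 and 1604 with the scrambled shRNA and 724, 364 and 1082 with shCCND3. It stood at 2193, 1559 and 1450 with DMSO and 266, 45.3 and 341 with palbociclib. Each treated group was below its control, by 8.24-fold, 34.4-fold and 4.26-fold with the drug. Over the lines ORC1 fell with the knockdown (−1.23 ± 0.40 (SE, n = 3 lines), adjusted p = 0.0282) and with palbociclib (−3.41 ± 0.89 (SE, n = 3 lines), adjusted p = 0.013). ORC6, the smallest subunit, which binds the complex loosely, had log2 ratios of −1.19, −1.72 and −0.82 with the knockdown and −1.88, −3.59 and −1.23 with palbociclib. It fell with both treatments (adjusted p = 0.0185 and 0.0217). ORC3, a subunit of the stable core, had −0.53, −0.65 and −0.19 with the knockdown and −1.03, −1.08 and −0.88 with palbociclib, and fell with palbociclib only by this test (mean −1.0 ± 0.06 (SE, n = 3 lines), adjusted p = 0.0109, against 0.0954 with the knockdown). The difference between treatments did not pass for ORC3 (0.54 ± 0.08 (SE, n = 3 lines), adjusted p = 0.0699).

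The remaining core subunits ORC2, ORC4 and ORC5 did not pass the test with either treatment. ORC4 stood at 1864, 1480 and 1668 with the scrambled shRNA and 2285, 1352 and 1233 with shCCND3, and at 1230, 1267 and 1493 with DMSO and 1804, 1136 and 1318 with palbociclib. It was thus above its control in NALM-6 and below it in the other lines under both treatments, with log2 ratios of 0.29, −0.13 and −0.44 with the knockdown and 0.55, −0.16 and −0.18 with palbociclib, and this difference between lines was not tested. ORC5 stood at 654, 487 and 585 with the scrambled shRNA and 589, 451 and 608 with shCCND3. It stood at 526, 625 and 776 with DMSO and 630.1, 744 and 822 with palbociclib, above its control in each line. Its log2 ratios were −0.15, −0.11 and 0.06 with the knockdown and 0.26, 0.25 and 0.08 with palbociclib, and the palbociclib mean of 0.20 ± 0.06 (SE, n = 3 lines) had an adjusted p of 0.366. ORC2 had log2 ratios of −0.32, −0.29 and −0.22 with the knockdown and −0.58, −0.71 and −0.30 with palbociclib, below 0 in each line. Its palbociclib mean of −0.53 ± 0.12 (SE, n = 3 lines) lay near the threshold by limma (adjusted p = 0.0581, unadjusted p = 0.00961). Levels per kb, used to set genes against each other, take the deposited level as linear and not yet divided by gene length, which the sources used here do not state. Per kb, ORC1 was at 687, 489 and 455 and ORC5 at 268, 321 and 396 with DMSO, so ORC1 was the more abundant transcript in each line. With palbociclib the order was the opposite, with ORC1 at 83.4, 14.2 and 107 and ORC5 at 321, 382 and 419.7 per kb. The DMSO and palbociclib groups of a line share a table, while the tables of different lines were normalized separately.

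The 3 members that govern helicase loading were lower by 1.5-fold in each table (between 8.47% and 15% of all genes) but that of BV-173 with the knockdown, where 0 were (4.78%). CDC6 (NCBI gene 990), the loading ATPase, stood at 2854, 1896 and 2080 with the scrambled shRNA and 1026, 415 and 1415 with shCCND3. It stood at 2442, 2083 and 1461 with DMSO and 411, 55.8 and 521 with palbociclib. With log2 ratios of −1.48, −2.19 and −0.56 and −2.57, −5.22 and −1.49, CDC6 gave the largest drop of any member in RS4;11 with the knockdown. It fell over the lines with the knockdown (−1.41 ± 0.47 (SE, n = 3 lines), adjusted p = 0.027) and with palbociclib (−3.09 ± 1.11 (SE, n = 3 lines), adjusted p = 0.028). CDT1 (NCBI gene 81620), which escorts the MCM ring to the origin, stood at 4090, 4042 and 4990 with the scrambled shRNA and 1567, 1185 and 4176 with shCCND3. With DMSO it stood at 7154, 4855 and 6668, and with palbociclib at 481, 108 and 1189. CDT1 had the lowest palbociclib mean of all 50 members (−3.96 ± 0.87 (SE, n = 3 lines), adjusted p = 0.00911), while its knockdown ratio in BV-173 was only −0.26. GMNN encodes geminin, the inhibitor of CDT1, and was lower alongside it, with log2 ratios of −1.31, −1.79 and −0.42 with the knockdown and −2.65, −3.40 and −1.94 with palbociclib. It fell over the lines with both treatments (adjusted p = 0.0323 and 0.00672).

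**Figure D3:**
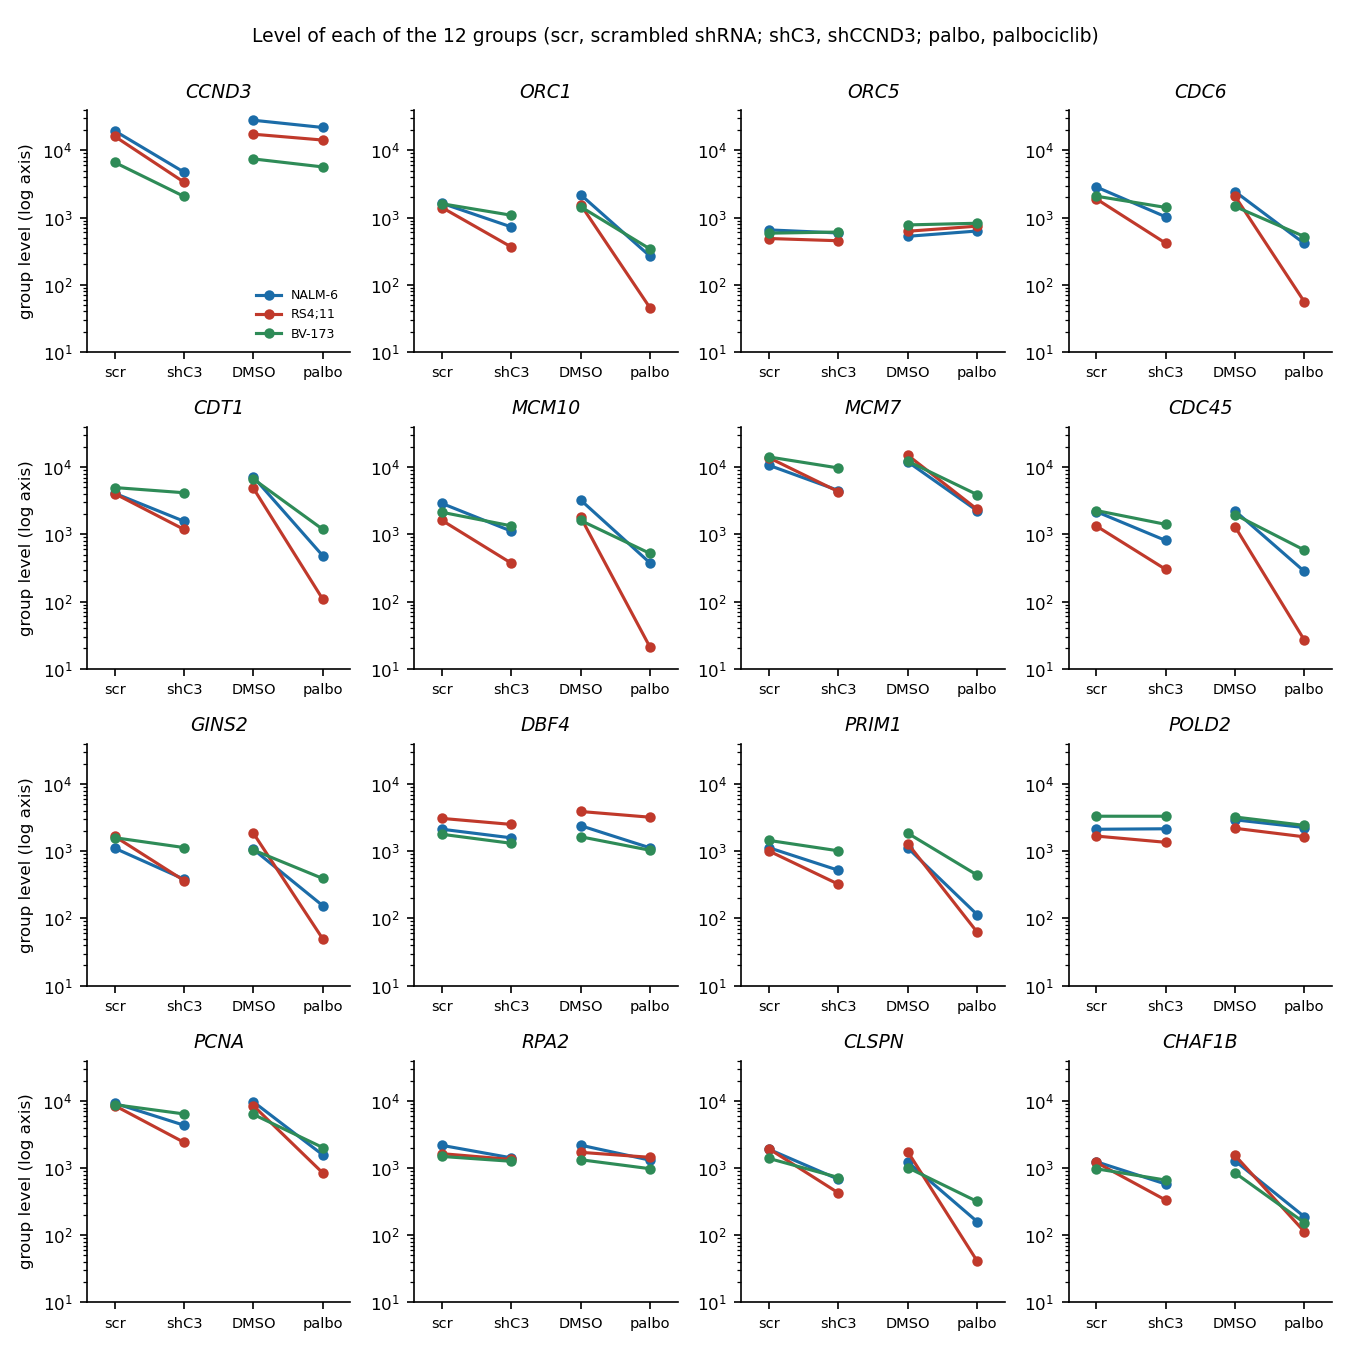
Level of CCND3 and 15 members in the 12 groups, on a log axis that is the same in each panel. Lines join the control and treated group of a table, and levels set across tables were normalized separately. ORC5 and POLD2 have shallow joins in each line, while ORC1, CDC6, MCM10 and CDC45 each have their steepest join in RS4;11 with palbociclib.

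All 8 MCM genes fell with the knockdown (4.32% of all genes) and all 8 fell with palbociclib (9.19%) by the test over lines, by amounts that differed between them. Among MCM2 to MCM7, the 6 subunits of the ring helicase, MCM4 was the lowest in each line with the knockdown, at −1.45, −2.02 and −0.64, and the least reduced were MCM6 at −0.93 in NALM-6 and −0.45 in BV-173 and MCM5 at −1.48 in the MLL-AF4 line. MCM7 (NCBI gene 4176) stood at 10684, 13822 and 14236 with the scrambled shRNA and 4505, 4330 and 9765 with shCCND3, and at 12071, 15116 and 12335 with DMSO and 2257, 2367 and 3919 with palbociclib. The treated groups were lower in each pair, with log2 ratios of −1.25, −1.67 and −0.54 with the knockdown and −2.42, −2.67 and −1.65 with palbociclib. MCM2, the least reduced of the 8 with palbociclib, still had −1.01, −1.70 and −0.49 with the knockdown and −1.46, −2.24 and −1.02 with palbociclib. MCM3 had −0.99, −1.51 and −0.56 with the knockdown and −1.84, −2.31 and −1.30 with palbociclib. MCM4 had −2.12, −3.41 and −1.29 with palbociclib. These differ most in the MLL-AF4 line, where palbociclib lowered MCM4 by 10.6-fold and MCM2 by 4.71-fold. MCM5 had −1.09, −1.48 and −0.46 with the knockdown and −2.03, −2.26 and −1.07 with palbociclib. MCM6 had −0.93, −1.60 and −0.45 with the knockdown and −1.89, −2.37 and −1.64 with palbociclib.

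Per kb of gene length, the highest of MCM2 to MCM7 was 2.33, 3.17 and 4.03 times the lowest with DMSO, and 2.44, 3.01 and 5.15 times with palbociclib, so the spread within the ring moved most in BV-173. For ORC the same quotient was 3.71, 3.4 and 3.46 with DMSO and 3.85, 26.9 and 3.93 with palbociclib, so it moved far in the MLL-AF4 line alone. MCM4 held a different place in each line: it was the lowest of the 6 per kb in NALM-6 with DMSO, at 1713, and the highest in BV-173, at 6125, in tables that were normalized separately. MCM10 (NCBI gene 55388), a fork factor that is not part of the ring and helps to activate it, had the lowest single value of the whole set. It stood at 2893, 1618 and 2136 with the scrambled shRNA and 1119, 373 and 1340 with shCCND3. With DMSO it stood at 3256, 1808 and 1615, and with palbociclib at 377, 21 and 521. In RS4;11 that is 86.1-fold lower, number 10 from the lowest of 15857 genes. Its palbociclib mean was −3.72 ± 1.42 (SE, n = 3 lines), with an adjusted p of 0.0324 and a wide spread between lines. MCM8, a related helicase with a role in recombination, had log2 ratios of −1.08, −1.64 and −0.65 with the knockdown and −2.32, −3.11 and −1.55 with palbociclib.

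Helicase activation held genes with large and with small log2 ratios. CDC45 (NCBI gene 8318), which completes the active helicase together with GINS, stood at 2186, 1334 and 2268 with the scrambled shRNA and 812, 302 and 1413 with shCCND3, and at 2244, 1310 and 1971 with DMSO and 282, 26.8 and 585 with palbociclib. Each treated group lay below its control, by 48.9-fold in RS4;11 with palbociclib. CDC45 fell with the knockdown (−1.42 ± 0.42 (SE, n = 3 lines), adjusted p = 0.0222) and with palbociclib (−3.45 ± 1.14 (SE, n = 3 lines), adjusted p = 0.0222). The 4 GINS subunits differed from each other. GINS2 (NCBI gene 51659) stood at 1109, 1663 and 1593 with the scrambled shRNA, 383, 366 and 1136 with shCCND3, 1067, 1850 and 1043 with DMSO and 155, 49.5 and 393 with palbociclib, and gave the largest knockdown drop of any member in NALM-6, at −1.53. GINS1 had log2 ratios of −1.03, −2.03 and −0.41 with the knockdown and −2.64, −4.28 and −1.34 with palbociclib. GINS4 had −1.19, −1.80 and −0.53 with the knockdown and −1.53, −2.20 and −0.89 with palbociclib. All of GINS1, GINS2 and GINS4 fell with both treatments. GINS3 instead had −0.05, −0.72 and −0.20 with the knockdown and −1.42, −1.93 and −0.96 with palbociclib, and its knockdown mean of −0.32 ± 0.20 (SE, n = 3 lines) did not pass (adjusted p = 0.243), while the palbociclib mean did (−1.44 ± 0.28 (SE, n = 3 lines), adjusted p = 0.0112). The difference between treatments passed for GINS3 (1.11 ± 0.18 (SE, n = 3 lines), adjusted p = 0.0131). Per kb, GINS2 led the complex with DMSO, at 892, 1547 and 872, and GINS3 led it with palbociclib, at 177, 141 and 369.

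The kinase CDC7 and its activating subunit DBF4 also parted. CDC7 had log2 ratios of −1.17, −1.82 and −0.93 with the knockdown and −1.77, −3.98 and −1.64 with palbociclib, and fell with both treatments (adjusted p = 0.0185 and 0.0204). DBF4 (NCBI gene 10926) stood at 2130, 3089 and 1792 with the scrambled shRNA and 1586, 2514 and 1314 with shCCND3, and at 2410, 3916 and 1646 with DMSO and 1126, 3220 and 1036 with palbociclib. Its log2 ratios were −0.43, −0.30 and −0.45 with the knockdown and −1.10, −0.28 and −0.67 with palbociclib, so the MLL-AF4 line, where CDC7 was lowest, was the line where palbociclib lowered DBF4 least. The palbociclib mean of DBF4 was −0.68 ± 0.24 (SE, n = 3 lines) and lay at the edge of the test (adjusted p = 0.0495), and the knockdown mean of −0.39 ± 0.05 (SE, n = 3 lines) did not pass (adjusted p = 0.0605). The difference between them was 0.29 ± 0.20 (SE, n = 3 lines) and did not pass either (adjusted p = 0.28).

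Of the 9 genes for polymerases and primase, 8 fell with the knockdown (4.32% of all genes) and the same 8 with palbociclib (9.19%), and POLD2 did not pass in either. PRIM1 (NCBI gene 5557), the catalytic primase subunit that lays down RNA primers, stood at 1128, 1006 and 1451 with the scrambled shRNA and 521, 323 and 1016 with shCCND3, and at 1123, 1304 and 1858 with DMSO and 114, 62.6 and 443 with palbociclib. It was lower in each treated group and had the lowest palbociclib mean of the 9 (−3.25 ± 0.67 (SE, n = 3 lines), adjusted p = 0.00881). Its partner PRIM2 had log2 ratios of −1.01, −0.90 and −0.38 with the knockdown and −1.48, −1.41 and −1.08 with palbociclib. POLA1, the catalytic subunit of polymerase alpha, had −0.69, −1.15 and −0.78 with the knockdown and −0.81, −1.79 and −1.04 with palbociclib. The accessory subunit POLA2 had −1.01, −1.36 and −0.55 with the knockdown and −1.61, −2.18 and −0.98 with palbociclib. Within this complex PRIM1 was the most abundant transcript per kb with DMSO, at 764, 886 and 1263, and with palbociclib it was the least abundant in NALM-6 and RS4;11, at 77.5 and 42.6.

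Polymerase delta, which extends the lagging strand, showed a split between its subunits. POLD1, the catalytic subunit, had log2 ratios of −0.96, −1.37 and −0.34 with the knockdown and −1.86, −2.08 and −0.72 with palbociclib. POLD3 had −0.85, −1.57 and −0.54 with the knockdown and −2.28, −2.84 and −1.67 with palbociclib. POLD2 (NCBI gene 5425), the subunit that links them, stood at 2128, 1686 and 3329 with the scrambled shRNA and 2164, 1361 and 3328 with shCCND3, and at 2944, 2202 and 3244 with DMSO and 2259, 1643 and 2432 with palbociclib. None of these POLD2 pairs was past 1.5-fold, and its mean was −0.09 ± 0.11 (SE, n = 3 lines) with the knockdown (adjusted p = 0.657) and −0.41 ± 0.01 (SE, n = 3 lines) with palbociclib (adjusted p = 0.0607). Per kb, POLD2 was 3.85, 3.11 and 5.23 times POLD3 with DMSO and 14.3, 16.6 and 12.5 times with palbociclib. For polymerase epsilon, which extends the leading strand, the accessory subunit POLE2 had −1.17, −1.87 and −0.57 with the knockdown and −2.79, −4.09 and −1.78 with palbociclib. The catalytic subunit POLE had −1.08, −1.50 and −0.91 with the knockdown and −1.17, −1.94 and −1.15 with palbociclib. In BV-173 with the knockdown, POLE at −0.91 was among the 4 lowest members, with CLSPN at −0.94, CDC7 at −0.93 and ORC6 at −0.82.

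PCNA and its loader were lowered throughout by palbociclib: all 6 members were lower by 1.5-fold in all 3 lines (6.16% of all genes) and fell by the test (9.19%). PCNA (NCBI gene 5111), the clamp that tethers polymerases to DNA, stood at 9272, 8537 and 8830 with the scrambled shRNA and 4356, 2419 and 6420 with shCCND3, and at 9710, 8490 and 6314 with DMSO and 1578, 848 and 2028 with palbociclib. Its log2 ratios were −1.09, −1.82 and −0.46 with the knockdown and −2.62, −3.32 and −1.64 with palbociclib, and it fell with the knockdown (adjusted p = 0.0297) and with palbociclib (−2.53 ± 0.49 (SE, n = 3 lines), adjusted p = 0.00818). RFC1, the large loader subunit, had −0.77, −0.90 and −0.40 with the knockdown and −1.67, −1.73 and −1.35 with palbociclib. RFC2 had −0.79, −0.77 and −0.12 with the knockdown and −1.56, −1.83 and −1.04 with palbociclib. RFC2 was the only gene of this group that did not pass the test with the knockdown (−0.56 ± 0.22 (SE, n = 3 lines), adjusted p = 0.0707). Its difference between treatments passed (0.92 ± 0.08 (SE, n = 3 lines), adjusted p = 0.0102). RFC3 had −1.11, −1.64 and −0.47 with the knockdown and −2.34, −2.78 and −1.17 with palbociclib. RFC4 had −1.02, −1.76 and −0.45 with the knockdown and −2.75, −2.98 and −1.58 with palbociclib. RFC5 had −1.34, −1.78 and −0.71 with the knockdown and −2.34, −2.68 and −1.35 with palbociclib. Among the small subunits RFC2 to RFC5, RFC2 was thus the least reduced in each line under both treatments. RFC2 was the most abundant loader transcript per kb with palbociclib, at 382, 613 and 676, and held that place with DMSO in RS4;11 and BV-173 but not in NALM-6, where RFC4 led at 1156 against 1122.

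RPA, the trimer that coats single-stranded DNA, had with ORC the smallest drop of the role groups: the median of the palbociclib means was −0.75 for RPA and −0.76 for ORC, against −2.11 for all members. RPA1, the large subunit, had log2 ratios of −0.34, −0.66 and −0.37 with the knockdown and −0.66, −1.06 and −0.52 with palbociclib, and fell by small amounts over the lines (−0.46 ± 0.10 (SE, n = 3 lines), adjusted p = 0.0483, and −0.75 ± 0.16 (SE, n = 3 lines), adjusted p = 0.0241). RPA2 (NCBI gene 6118) stood at 2186, 1643 and 1494 with the scrambled shRNA and 1424, 1348 and 1266 with shCCND3, and at 2202, 1722 and 1336 with DMSO and 1316, 1451 and 982 with palbociclib. Its log2 ratios of −0.62, −0.29 and −0.24 with the knockdown and −0.74, −0.25 and −0.44 with palbociclib were past 1.5-fold in NALM-6 alone and did not pass the test (adjusted p = 0.0997 and 0.0708). RPA3, the small subunit, had −0.92, −1.30 and −0.20 with the knockdown and −1.49, −2.13 and −1.0 with palbociclib, and fell with palbociclib (−1.54 ± 0.33 (SE, n = 3 lines), adjusted p = 0.0145) but not with the knockdown (adjusted p = 0.0704), with a difference between treatments of 0.73 ± 0.08 (SE, n = 3 lines) that did not pass (adjusted p = 0.052). RPA3 was also the least abundant of the trimer per kb, at 431, 189.9 and 279 with DMSO and 154, 43.3 and 140.0 with palbociclib.

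**Figure D4:**
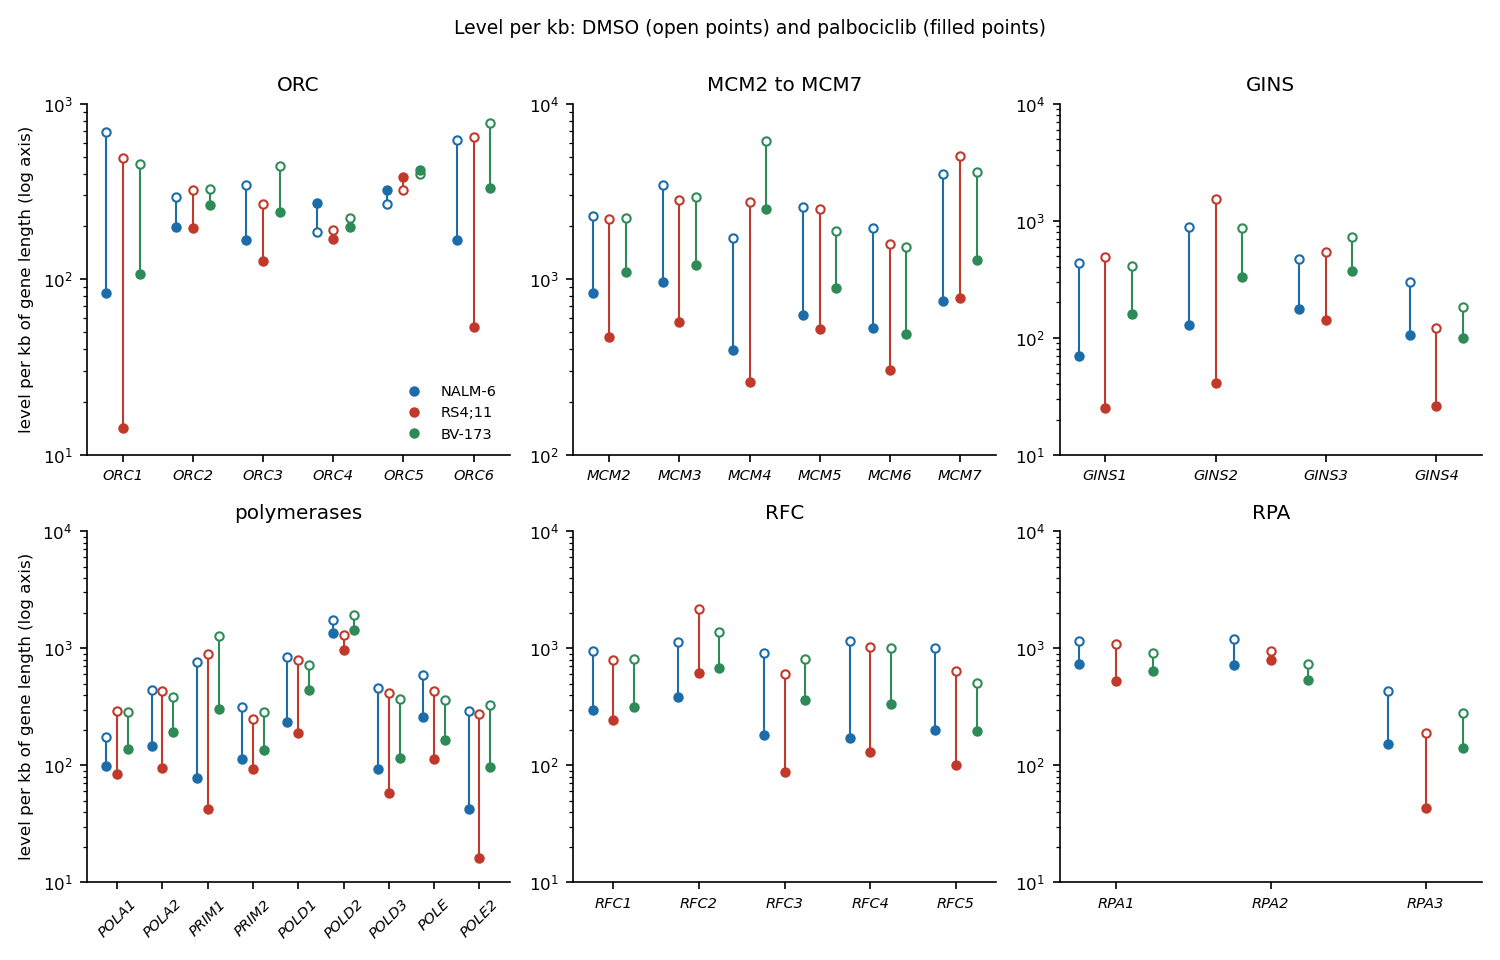
Level per kb of gene length on a log axis for the subunits of ORC, MCM2 to MCM7, GINS, RFC, RPA and the polymerases, with DMSO (open points) and palbociclib (filled points) joined within a line. Tables of different lines were normalized separately. ORC4, ORC5, POLD2 and RPA2 have short joins, while ORC1 and ORC6, of the same complex as ORC4 and ORC5, have long ones.

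Both genes of Okazaki fragment maturation fell with both treatments (4.32% of all genes with the knockdown and 9.19% with palbociclib). FEN1, the flap endonuclease, had log2 ratios of −1.11, −1.86 and −0.50 with the knockdown and −2.16, −3.24 and −0.87 with palbociclib. LIG1, the ligase that seals the fragments, had −1.06, −1.84 and −0.62 with the knockdown and −2.18, −3.30 and −1.89 with palbociclib. They were close in NALM-6 and RS4;11, while in BV-173 with palbociclib LIG1 was lower than FEN1.

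All 4 fork stability genes fell with both treatments (4.32% of all genes with the knockdown and 9.19% with palbociclib). CLSPN (NCBI gene 63967), which encodes the checkpoint mediator claspin, stood at 1903, 1933 and 1394 with the scrambled shRNA and 682, 427 and 726 with shCCND3, and at 1237, 1758 and 1017 with DMSO and 160.0, 41.4 and 319 with palbociclib. It had the lowest knockdown mean of all 50 members (−1.53 ± 0.36 (SE, n = 3 lines), adjusted p = 0.0185) and, at −0.94, the lowest knockdown ratio of any member in BV-173. TIMELESS had log2 ratios of −1.06, −1.67 and −0.73 with the knockdown and −2.27, −3.23 and −1.53 with palbociclib. TIPIN, its partner in the fork protection complex, had −0.94, −1.30 and −0.35 with the knockdown and −1.55, −1.77 and −1.18 with palbociclib. WDHD1, which ties polymerase alpha to the helicase, had −1.22, −1.69 and −0.65 with the knockdown and −2.36, −3.04 and −1.71 with palbociclib. Each of these was lower than its control in each table, and TIPIN was the least reduced of them with palbociclib.

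The 2 members for chromatin assembly, subunits of the CAF-1 histone chaperone, fell as well (4.32% of all genes with the knockdown and 9.19% with palbociclib). CHAF1B (NCBI gene 8208) stood at 1246, 1217 and 979 with the scrambled shRNA and 580.4, 335 and 665 with shCCND3, and at 1287, 1553 and 853 with DMSO and 189, 114 and 154 with palbociclib. In BV-173 its palbociclib ratio of −2.46 was next to that of CDT1 (−2.49) as the lowest of the members, while its knockdown ratio there was −0.56. CHAF1A had log2 ratios of −1.18, −1.71 and −0.56 with the knockdown and −2.70, −2.96 and −1.62 with palbociclib. By the test, CHAF1B fell with the knockdown (−1.17 ± 0.38 (SE, n = 3 lines), adjusted p = 0.0292) and with palbociclib (−3.0 ± 0.40 (SE, n = 3 lines), adjusted p = 0.00672).

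The treatments were then compared within each line. Palbociclib gave the lower log2 ratio for 48, 47 and 48 of the 50 members, and for 50.4%, 52.3% and 49.4% of all genes. The difference, knockdown less palbociclib, passed the test as higher for 31 members (background, 3.58%) and as lower for 0 (1.3%), and at an unadjusted p under 0.05 limma gave 44 and 0 (13.5% and 10.5% of all genes). The largest was that of CDT1 (2.82 ± 0.46 (SE, n = 3 lines), adjusted p = 0.00627), followed among those that passed by ORC1 (2.18 ± 0.50 (SE, n = 3 lines), adjusted p = 0.0123), PRIM1 (2.16 ± 0.34 (SE, n = 3 lines), adjusted p = 0.00743) and CDC45 (2.03 ± 0.73 (SE, n = 3 lines), adjusted p = 0.0385). MCM10 had a larger mean than ORC1 but did not pass (2.34 ± 1.01 (SE, n = 3 lines), adjusted p = 0.059). By role, those that passed were all 6 of the clamp and loader, 7 of 8 MCM genes, both of Okazaki maturation, both of chromatin assembly, 5 of 9 polymerase genes, 4 of 7 of helicase activation, 2 of 3 of helicase loading, 2 of 4 of fork stability, 1 of 6 of origin recognition and 0 of 3 of single-strand binding, where limma gave 2 at an unadjusted p under 0.05. POLE had a small difference (0.25 ± 0.10 (SE, n = 3 lines), adjusted p = 0.23), as had GINS4 (0.36 ± 0.02 (SE, n = 3 lines), adjusted p = 0.184). The agents, their controls and the days of harvest differ between the arms and cannot be told apart here. Without NALM-6 cells the difference was higher for 20 members and 185 of all 13307 genes, and without a trend of the variance with level limma called 0 members and 0 of all genes, where 41 members and 10.5% of all genes had an unadjusted p under 0.05.

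Most members had the same order of lines. With palbociclib, 43 of 50 were lowest in RS4;11, next in NALM-6 and highest in BV-173, an order held by 17.3% of all 13307 genes, 37.5% of the 1620 whose mean was lower by 1.5-fold and 50.1% of the 820 lower by 1.5-fold in all 3 lines. With the knockdown, 39 members were in that order, against 21.9% of all genes, 62.9% of the 770 whose mean was lower by 1.5-fold and 75.3% of the 243 lower by 1.5-fold in all 3 lines. Since each group has a single value, these differences between lines were not tested. Across the 50 members, which are not independent replicates, the rank correlation between the knockdown and palbociclib log2 ratios was 0.799, 0.926 and 0.509, as a description of arms that share no control. The SD over members was 0.41, 0.59 and 0.22 with the knockdown and 0.91, 1.56 and 0.55 with palbociclib.

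**Figure D5:**
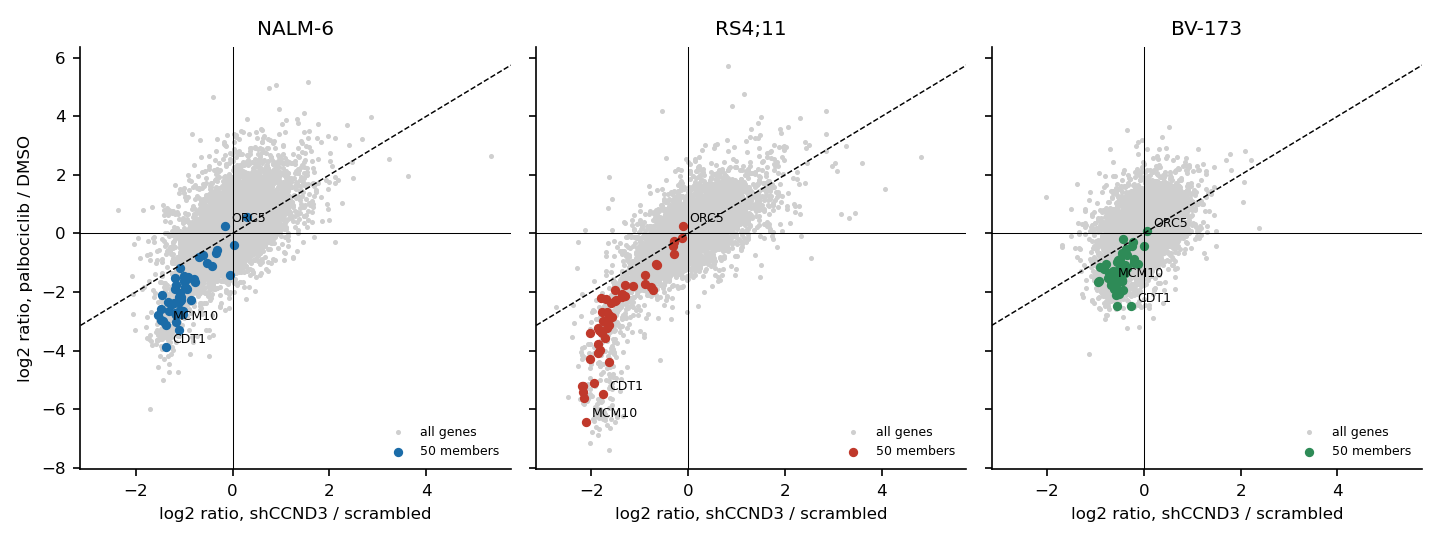
Log2 ratio with palbociclib (vertical) against that with the knockdown (horizontal), by line. Grey points are the 13307 genes listed in all 6 tables and coloured points the 50 members. The dashed line marks equal values, and 48, 47 and 48 members lie under it.

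A list of 30 other replication genes was examined in the same way. With the knockdown 15 of 30 fell (4.32% of all genes) and 0 rose by the test, and with palbociclib 20 fell (9.19%) and 0 rose, where limma gave 1 higher at an unadjusted p under 0.05 with each treatment. The 3 with the lowest palbociclib means were DTL (−3.34 ± 1.10 (SE, n = 3 lines), adjusted p = 0.022), which encodes a substrate receptor that targets CDT1 for destruction, TICRR (−3.23 ± 0.81 (SE, n = 3 lines), adjusted p = 0.0123), which encodes treslin, a factor for origin firing, and ASF1B (−3.01 ± 1.14 (SE, n = 3 lines), adjusted p = 0.0324), a histone chaperone. The 3 with the highest were POLD4 (0.81 ± 0.29 (SE, n = 3 lines), adjusted p = 0.0622), the small subunit of polymerase delta, ATR (0.20 ± 0.04 (SE, n = 3 lines), adjusted p = 0.323), the checkpoint kinase, and LRWD1 (0.20 ± 0.08 (SE, n = 3 lines), adjusted p = 0.408), an ORC-associated protein. None of these last 3 passed the test. The median log2 ratios of the list were −0.81, −0.97 and −0.32 with the knockdown and −1.40, −1.49 and −0.96 with palbociclib.

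Against related programmes, the members lay between nucleotide synthesis and mitosis with palbociclib. Mitosis genes had medians of −1.28, −1.59 and −0.56 with the knockdown and −3.22, −4.58 and −1.73 with palbociclib, and 25 and 25 of 25 fell by the test (4.32% and 9.19% of all genes). Genes of nucleotide synthesis had medians of −0.30, −0.52 and −0.05 with the knockdown and −0.70, −0.81 and −0.44 with palbociclib, and 9 and 14 of 29 fell by the test (4.32% and 9.19% of all genes). The RB and E2F axis, which includes CCND3 itself, had medians of −0.45, −1.22 and −0.41 with the knockdown and −0.36, −0.52 and −0.40 with palbociclib, and 7 and 6 of 15 fell by the test (4.32% and 9.19% of all genes). Of that list, 1 gene of 15, CCND2, rose with palbociclib, a count near the share of all genes (5.58%). With the knockdown the medians of the members and of the mitosis genes were close in each line, while with palbociclib the mitosis genes were lower. These lists are described by count and median and were not tested against each other. The 5 genes outside these lists whose 6 log2 ratios lay nearest to the members' medians, among 13138 genes by Euclidean distance, were H2AFZ (distance 0.37), WDR62 (distance 0.38), RCCD1 (distance 0.39), CDK2 (distance 0.40) and HIRIP3 (distance 0.41). H2AFZ encodes the histone variant H2A.Z and CDK2 the kinase of S phase entry. The nearest member was RFC3 (distance 0.31) and the farthest ORC5 (distance 4.45).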

How the data were processed

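RNA was extracted from 34 samples of 3 B-ALL lines (12 groups of 2 or 3) and sequenced after oligo dT selection. According to the deposited labels, the authors cleaned the reads (SOAPnuke), aligned them to hg38 (Bowtie2), quantified genes (RSEM) and set groups against each other (DESeq2). Versions are not given in the sources used here. Each of the 6 tables holds 1 signal per group, deposited by the authors and scaled within its pair, and gene length in bases, another deposited column. The authors' fold change, p and adjusted p columns were not used. Depth per sample and spread between samples were not available, so no precision per group is given.

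Log2 ratios and levels per kb take the level as linear, and levels per kb also take it as not divided by length. Log2 ratios were computed without a pseudocount and called past 1.5-fold. Over lines, limma 3.58.1 (R 4.3.3) was fitted to 3 ratios per gene with a variance trend on mean log2 level, two-sided, with Benjamini-Hochberg adjustment over 13307 genes and a threshold of 0.05. The code was tested on simulated, independent ratios whose spread between lines shrank with level, a setting that may differ from these data. Alternatives were a fold of 1.25 or 2, an adjusted p of 0.1, a pseudocount of 1, a minimum mean level of 10, median centring, rescaling to equal sums, no trend, leaving out each line, and stricter or shorter promoter searches. Tables were read with Python 3.11.15 and pandas 2.3.3. The members and lists were chosen with earlier results of these data known.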

Additional observations from a re-analysis of the deposited data

How the results depend on the processing

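No paired analysis was possible because each group has 1 value per gene, that is, single samples could not be paired, and treated and control levels were paired by line. Alternatives that leave out or block replicates were not run for the same reason. Of 164 counts, medians and shares under an alternative setting, 150 stayed within the limits set for them. That number is no measure of stability, because many of these values could hardly change. A large part were counts of 0 members that stayed at 0. The minimum mean level could not alter member counts or medians within a table, as all members lie above it. The limits were also wide. By limma, 30 members lower with palbociclib without a trend, against 45, counted as staying. So did 24 with a higher difference after rescaling, against 31. Members lower with the knockdown in BV-173 numbered 0 at 2-fold (0.488% of all genes), 41 at the looser fold threshold (15.4%) and 27 after rescaling to equal sums (7.76%), against 13 (4.78%). Members lower with the knockdown in all 3 lines numbered 0 at 2-fold (0.143%) and 39 at the looser fold threshold (5.46%), against 13 (1.83%). Members higher with palbociclib in NALM-6 numbered 1 at the looser fold threshold (32.8%) and 1 after rescaling (26.4%), against 0 (21.4%). By limma, members lower with the knockdown numbered 0 without a trend of the variance with level (0 of all 13307 genes) and 23 without RS4;11 cells (230 of all genes), against 40, and with palbociclib 12 without NALM-6 cells (216 of all genes), against 45. Members with a higher difference, knockdown less palbociclib, numbered 0 without a trend (0 of all genes) and 20 without NALM-6 cells (185 of all genes), against 31. Members with a promoter match made up 50% with the strict motifs and 45.5% within 150 bases before the start, against 75%, and the shares of all genes were 3.99% and 8.94%, against 15.3%. Of 2142 single-gene values, 1929 stayed, 182 were weaker, 17 stronger and 11 shifted, and 3 changed sign: ORC4 with the knockdown without BV-173 cells (0.082, against −0.09), POLD2 with the knockdown without RS4;11 cells (0.012, against −0.09) and ORC4 with palbociclib without NALM-6 cells (−0.17, against 0.07), none of which passed the test.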
